A study of Homo sapiens with 12 samples.

Results

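Long stretches of the human genome that carry no lamina contact in either of 2 pluripotent states were described here. Lamina-associated domains (LADs) are regions of DNA that lie against the nuclear lamina, the protein meshwork under the inner nuclear membrane. The autosomes were cut into 10 kb windows, and a stretch was any run of windows of 1 Mb or longer outside the naive list and outside the primed list of LADs that held at least 1 annotated gene. The stretches were thus chosen by the LAD positions themselves, so their freedom from LADs is no finding. There were 261 such stretches among 6716 LAD-free runs on the 22 autosomes. The other runs comprised 817 of 100 to 990 kb, 5624 under 100 kb, and 14 runs of 1 Mb or longer that held no gene of any class and were left out.

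The lists come from H9 cells, an established human embryonic stem cell line, grown in RSeT medium to hold the naive state (a state resembling the cells of the embryo before implantation) or in mTeSR medium to hold the primed state (resembling the embryo after implantation). Lamin B1, a lamina protein, was targeted with an antibody that recruits a protein A and Dam methylase fusion, and the adenine methylation left at nearby GATC sites was sequenced (pA-DamID). The labels name 12 libraries, 3 each of naive LMNB1-dam, naive Dam-only, primed LMNB1-dam and primed Dam-only, where Dam-only is the enzyme without the antibody, and leave unsaid if the 3 libraries were grown separately. Each state has 1 deposited list for all its libraries, so no value below has a replicate error and no difference has a test.

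LADs are as a rule poor in genes and rich in repressed chromatin, and the DNA between them holds most of the active genes. Genes needed in every cell tend to lie in that inter-LAD DNA whatever the cell type. Tissue-restricted families, such as the olfactory receptors, are often found at the lamina.

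The sequences that follow were chosen to show what kinds of element lie in and out of the stretches. The first set is the mature microRNAs of 3 clusters known from pluripotent cells and placenta, from RefSeq on GRCh38.p14, with the seed (bases 2 to 8, which pair with target messages) in capitals.
hsa-miR-520b-3p: aAAGUGCUuccuuuuagaggg
hsa-miR-520c-3p: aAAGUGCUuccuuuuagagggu
hsa-miR-519b-3p: aAAGUGCAuccuuuuagagguu
hsa-miR-372-3p: aAAGUGCUgcgacauuugagcgu
hsa-miR-373-3p: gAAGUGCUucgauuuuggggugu
hsa-miR-302a-3p: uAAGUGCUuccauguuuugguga

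All but miR-519b-3p share the seed AAGUGCU, and miR-519b-3p has AAGUGCA. The genes with a common seed differed in position. All 46 genes of the primate-specific chromosome 19 microRNA cluster (53666679 to 53762430) and all 4 of the miR-371 to miR-373 cluster (53787675 to 53788773) lay in the same stretch, chr19:31970001-53980000. None of the 5 genes of the miR-302 cluster on chromosome 4, among the most abundant microRNAs of pluripotent cells, lay in a stretch. They sat in a LAD-free run of 710 kb, chr4:112380001-113090000, below the length limit but outside both lists. The 6 genes of the miR-17 to miR-92a cluster on chromosome 13 sat in a run of 20 kb. Of the miR-200 family, MIR200C and MIR141 lay in a stretch at the start of chromosome 12, and MIR200A, MIR200B and MIR429 lay in a naive LAD just before the stretch chr1:1170001-16590000. Of 10 let-7 genes, 7 lay in stretches, among them MIRLET7A1, MIRLET7F1 and MIRLET7D together on chromosome 9. These clusters were picked after their positions were known.

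The second set is 4 promoters (250 bases before to 50 after the gene's start, RefSeq, GRCh38.p14, on the gene's own strand) of genes that act in early development or in DNA methylation, with every CG dinucleotide in capitals. KLF17 (a naive-state transcription factor, plus strand), DNMT1 (the maintenance DNA methyltransferase, minus strand) and NANOG (a core pluripotency factor, plus strand) lay in stretches. DPPA2 (a chromatin factor of pluripotent and germ cells, minus strand) did not.
KLF17, chr1:44118571-44118870: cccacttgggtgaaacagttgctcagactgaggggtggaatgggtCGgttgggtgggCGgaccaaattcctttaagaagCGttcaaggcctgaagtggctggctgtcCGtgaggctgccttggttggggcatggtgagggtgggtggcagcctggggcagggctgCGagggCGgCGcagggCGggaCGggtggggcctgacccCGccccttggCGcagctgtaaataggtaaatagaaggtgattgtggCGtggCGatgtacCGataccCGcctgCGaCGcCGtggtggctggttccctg
DNMT1, chr19:10194904-10195203: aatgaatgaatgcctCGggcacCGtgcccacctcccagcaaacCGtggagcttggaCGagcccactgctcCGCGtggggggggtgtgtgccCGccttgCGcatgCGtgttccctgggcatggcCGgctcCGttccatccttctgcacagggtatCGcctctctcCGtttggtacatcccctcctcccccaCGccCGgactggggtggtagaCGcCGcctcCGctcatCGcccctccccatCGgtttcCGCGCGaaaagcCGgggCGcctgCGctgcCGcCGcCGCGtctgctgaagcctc
NANOG, chr12:7789152-7789451: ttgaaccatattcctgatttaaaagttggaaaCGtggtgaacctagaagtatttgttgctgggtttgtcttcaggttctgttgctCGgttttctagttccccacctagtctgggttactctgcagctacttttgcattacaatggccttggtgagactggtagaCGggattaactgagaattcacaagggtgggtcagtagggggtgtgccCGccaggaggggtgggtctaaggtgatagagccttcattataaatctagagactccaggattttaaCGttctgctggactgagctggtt
DPPA2, chr3:109316468-109316767: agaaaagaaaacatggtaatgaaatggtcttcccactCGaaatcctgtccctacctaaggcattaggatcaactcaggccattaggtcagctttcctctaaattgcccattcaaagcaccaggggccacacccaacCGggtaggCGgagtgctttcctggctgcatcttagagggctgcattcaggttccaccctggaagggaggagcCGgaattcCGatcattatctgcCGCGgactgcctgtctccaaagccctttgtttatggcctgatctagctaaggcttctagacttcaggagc

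The KLF17, DNMT1 and NANOG promoters held 18, 30 and 5 CG dinucleotides, so the stretches held CG-dense and CG-sparse promoters alike. The DPPA2 promoter held 7, its window lay in a primed LAD only, and the midpoint of the gene lay in LADs of both states. It held 3 copies of GATC, the letters that Dam methylates and that read the same on both strands, and the other 3 promoters held 0. Over all 15101 autosomal promoters with a sequence, 39.5% held GATC. The share was 38.9% of 9641 promoters in the stretches and 43.7% of 2187 in LADs of both states. These shares cover promoters only, and the GATC content of the 10 kb windows was not measured. CG-rich promoters (GC of at least 55% and an observed over expected CG ratio of at least 0.65) made up 61.1% of the stretches' promoters, against 39.9% in LADs of both states and 46.5% in windows of naive LADs alone. They made up 63.1% in LAD-free runs of 100 to 990 kb 61.3% in runs under 100 kb and 60.7% in windows of primed LADs alone, so this share did not set the stretches apart from the other LAD-free runs or from primed LADs alone.

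The stretches added up to 997.62 Mb, 34.7% of the 2873.91 Mb autosomal span. They were 3.89% of the LAD-free runs and held 69.0% of all LAD-free DNA (1444.83 Mb). Their median length was 2.46 Mb (quartiles 1.54 and 4.66 Mb) and the longest measured 31.54 Mb. Stretches of at least 5 Mb numbered 57 and held 52.3% of the stretch DNA, and 13 reached 10 Mb. At the length limit the shortest stretch was chr10:86340001-87340000, of 1.00 Mb, and the next were 2 of 1.01 Mb on chromosomes 14 and 15 and 2 of 1.02 Mb on chromosomes 15 and 19. Just outside it were 3 runs of 0.99 Mb, on chromosomes 11, 16 and 20, and 1 of 0.98 Mb on chromosome 12.

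A window is called LAD-free when it is in neither list, which includes assembly gaps and repeats where reads cannot be placed. Of the 261 stretches, 13 crossed an interval of 1 Mb or longer without any annotated gene, and these 13 held 101.25 Mb, of which 86.2 Mb was gene-free. They lay at the starts of the acrocentric chromosomes 13, 14, 21 and 22 and at or near centromeres. For these intervals, absence from the lists cannot be told apart from absence of mappable sequence. Without them, 248 stretches of 896.37 Mb remained.

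The stretches were dense in protein-coding genes. Of 18973 autosomal protein-coding genes, 12089 lay wholly inside a stretch, a share of 63.7% (exact binomial interval 63.0% to 64.4%, for counting error only). This was 12.1 genes per Mb, against 6.60 per Mb over the whole autosomal span. It was 13.4 per Mb over the 248 stretches that cross no long gene-free interval. Assigned by midpoint, protein-coding genes stood at 12.2 per Mb in the stretches, 8.00 in LAD-free runs of 100 to 990 kb, 6.28 in runs under 100 kb, 3.90 in windows of naive LADs alone, 6.41 in those of primed LADs alone and 2.45 in LADs of both states.

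**Figure D1:**
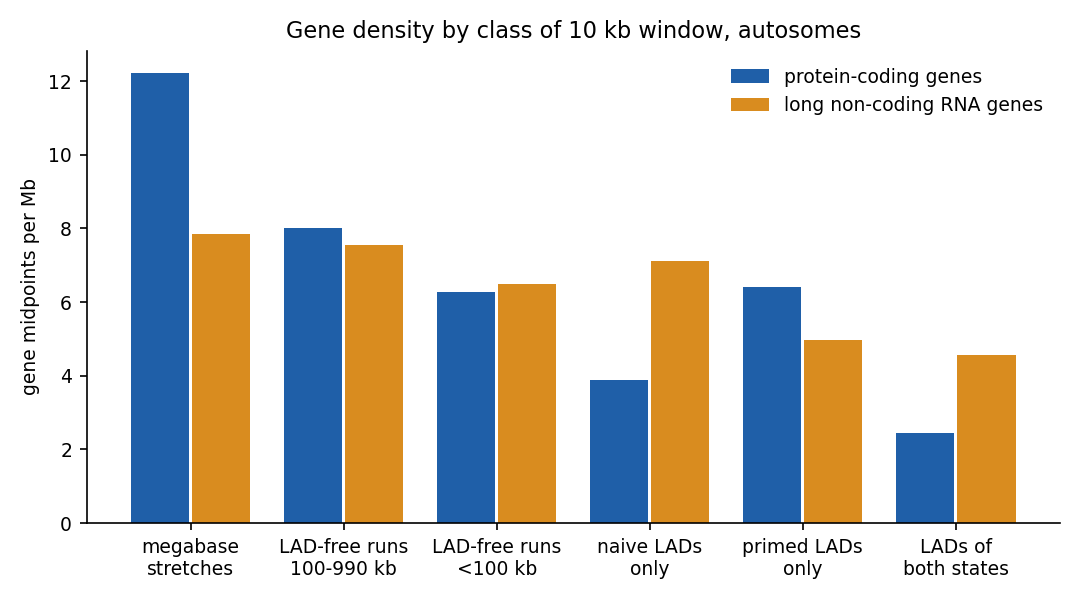
Bars give protein-coding and long non-coding RNA gene midpoints per Mb (vertical axis) in 6 classes of autosomal 10 kb window, with no replicates and so no error bars. Protein-coding density was 12.2 per Mb in the megabase stretches and 2.45 in LADs of both states, while long non-coding RNA density was 7.85 and 4.56.

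Long non-coding RNA genes were spread more evenly, at 7.85 per Mb in the stretches, 7.55 in LAD-free runs of 100 to 990 kb, 7.11 in naive LADs only and 4.56 in LADs of both states. Of all such genes, 44.4% lay wholly inside a stretch, and pseudogenes gave 44.5%. Among the small RNAs, 63.2% of 1793 microRNA genes and 63.2% of 1144 small nucleolar RNA genes (guides for ribosomal RNA modification) lay inside, close to the protein-coding share. Transfer RNA genes, which are short and transcribed by RNA polymerase III, stood at 73.9% of 425. The stretch chr6:26230001-29150000 held 144 of the 314 inside, and without it and its genes the share was 170 of 281 (60.5%), below the 63.7% of protein-coding genes, a comparison chosen after the counts were seen. Of the 425, 6 (1.41%) had their midpoint in LADs of both states. The same share was 15.2% of protein-coding, 15.6% of microRNA and 16.2% of small nucleolar RNA genes.

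Protein-coding genes in the stretches, assigned by midpoint, had a median length of 19.9 kb (quartiles 7.94 and 48.7 kb), against 24.8 kb over all autosomal protein-coding genes. The median was 31.3 kb in LAD-free runs of 100 to 990 kb, 25.4 kb in runs under 100 kb and 28.7 kb in windows of primed LADs alone. It was 55.3 kb in windows of naive LADs alone and 55.2 kb in LADs of both states. Counted by midpoint, 64.2% of protein-coding genes lay in the stretches. Protein-coding gene bodies touched 59.2% of stretch windows and 46.3% of all autosomal windows.

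Gene density differed widely among the stretches themselves. The median was 9.27 protein-coding genes per Mb (quartiles 6.16 and 14.2), 190 of the 261 were denser than the autosomal span, and 4 held no protein-coding gene. Stretches of 1 to 2 Mb had 9.27 genes per Mb as a class, those of 2 to 5 Mb had 12.3, those of 5 to 10 Mb had 13.6 and those of 10 Mb or longer had 11.7. Without the stretches that cross long gene-free intervals the 4 values were 9.34, 12.7, 14.4 and 16.8, so the class of 10 Mb or longer was the densest in that set and below the 2 classes before it in the full set. Spearman's rho of length with density was 0.26 over 261 stretches and 0.35 over 248, as a description of stretches that share chromosomes.

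**Figure D2:**
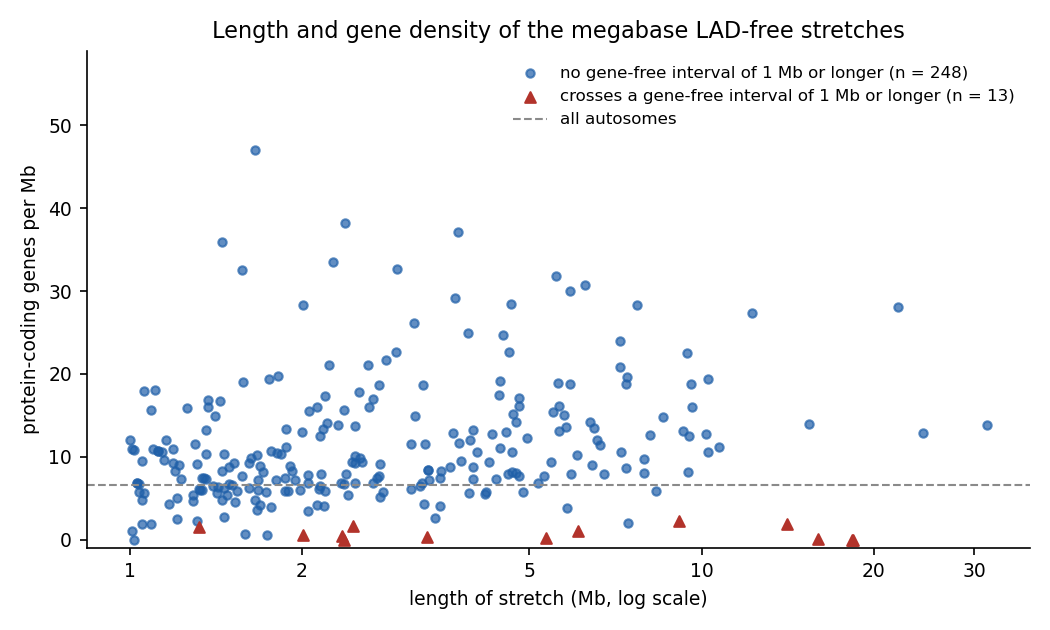
Each point is a stretch, with its length in Mb on a log scale (horizontal axis) and its protein-coding genes per Mb (vertical axis). Triangles mark the 13 stretches that cross a gene-free interval of 1 Mb or longer, all of them below the dashed line for all autosomes at 6.60 per Mb.

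The longest stretch was chr1:16600001-48140000, 31.54 Mb on the short arm of chromosome 1 with 436 protein-coding genes (13.8 per Mb). It held KLF17, LIN28A (an RNA-binding pluripotency factor that blocks let-7 maturation), the Polycomb subunit PHC2, the forkhead factor FOXJ3 and the cytochromes P450 CYP4X1 and CYP4Z1. The second was chr22:21500001-45930000, 24.43 Mb with 314 genes, among them PES1, needed for ribosome assembly, and RFPL1, a gene of the 8-cell embryo list. The third, chr19:31970001-53980000, was 22.01 Mb with 617 genes (28.0 per Mb), more genes than any other named stretch, and 103 of them were ZNF genes such as ZNF420 and ZNF568. The 3 next in length lay at the starts of chromosomes 13 (18.42 Mb), 14 (18.34 Mb) and 22 (15.98 Mb) and were mostly gene-free, with 0, 0 and 2 protein-coding genes, the last 2 being OR11H1 and POTEH.

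The seventh, chr1:1170001-16590000, measured 15.42 Mb with 215 genes, including TP73, a relative of the tumour suppressor p53, and 22 PRAME family genes. The eighth, chr16:36910001-51040000, measured 14.13 Mb but had 9.56 Mb without genes around the centromere and 27 protein-coding genes, such as ZNF423 and ABCC11. The ninth, chr19:5910001-18150000, measured 12.24 Mb with 335 genes (27.4 per Mb) and held DNMT1. The tenth, chr11:68040001-78750000, measured 10.71 Mb with 120 genes, among them RPS3, a protein of the small ribosomal subunit, and MRPL48 and MRPL21 of the mitochondrial ribosome.

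The densest stretch was short, chr19:53990001-55650000, of 1.66 Mb with 78 protein-coding genes (47.0 per Mb). It held NLRP7, a maternal-effect gene and naive-state marker, and the ribosomal protein genes RPL28 and RPS9. Next came chr12:55590001-57970000 (38.2 per Mb, with RPS26, RPL41 and the vitamin D enzyme CYP27B1), chr11:64280001-68030000 (37.1 per Mb, with the urate transporters SLC22A11 and SLC22A12), chr11:1-1450000 (35.9 per Mb, with the proteasome subunit PSMD13) and chr1:154980001-157250000 (33.5 per Mb). The last of these held LMNA, which codes for lamins A and C. The 4 stretches without a protein-coding gene were those at the starts of chromosomes 13 and 14, a 2.37 Mb stretch on chromosome 20 beside the centromere and chr19:27510001-28530000, a 1.02 Mb stretch with 7 long non-coding RNA genes. The next lowest was the start of chromosome 22, at 0.125 per Mb.

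The share of each chromosome in stretches followed its gene content only in part. Chromosomes 22 and 19 had 97.5% and 94.5% of their span in stretches, though chromosome 22 fell to 71.6% with its gene-free intervals taken out of the stretch length, and chromosome 19 had none to take out. Chromosomes 17, 16 and 20 followed at 76.3%, 66.5% and 57.9%. The lowest shares were 13.2% on chromosome 4, 16.2% on chromosome 5 and 18.8% on chromosome 8. Over the 22 chromosomes the share of span correlated with protein-coding genes per Mb at r = 0.72 (Spearman's rho 0.64), and at r = 0.54 without chromosomes 17 and 19, as a description with 1 list per state. The share of genes ran above the share of span on every chromosome but 22: on chromosome 4, 30.9% of protein-coding genes lay in 13.2% of the span, and on chromosome 19, 1403 of 1410 genes (99.5%) lay inside. With chromosome 19 left out, the autosomal share of protein-coding genes inside a stretch was 60.8%.

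**Figure D3:**
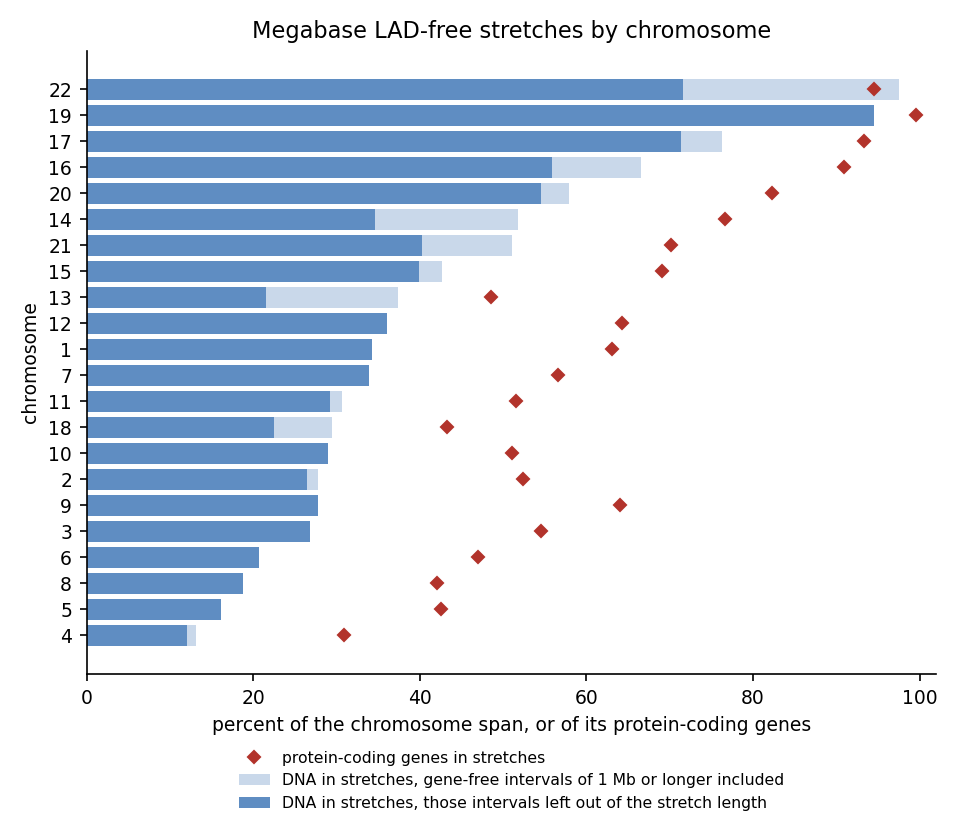
For each autosome, ordered by share, bars give the percent of its span in megabase stretches with and without gene-free intervals of 1 Mb or longer, and diamonds give the percent of its protein-coding genes inside. Chromosomes 22 and 19 are at the top with 97.5% and 94.5% of their span, chromosome 4 at the bottom with 13.2%, and the diamond lies left of the bar's end only on chromosome 22.

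Gene families and lists were read against the 63.7% of all protein-coding genes. In those made of tandem copies, neighbouring members often lay inside or outside together, though some clusters were split. Such members are not independent. Lists of housekeeping and nuclear machinery came first in the following account, then chromatin regulators, developmental and state genes, and last the tissue-restricted families.

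Ribosomal protein genes lay inside at 63 of 82 (76.8%), spread over 46 stretches, and only RPL10L, a testis copy, had its midpoint in LADs of both states. Mitochondrial ribosomal protein genes stood at 54 of 76 (71.1%). Proteasome genes stood at 37 of 47 (78.7%), with the immunoproteasome subunits PSMB8 and PSMB9 among them and PSMA1 as the 1 member in LADs of both states. Nucleolar factors stood at 21 of 24 (87.5%) in 20 stretches, including the nucleolar proteins NCL and NPM1, the RNA methyltransferase FBL, and UBTF, which activates transcription of ribosomal DNA. The remaining 3 were TAF1D, in a LAD-free run of 100 to 990 kb, and TAF1A and WDR75, in LADs of both states. Of all protein-coding genes, 15.2% had their midpoint in LADs of both states.

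The genes for the lamina itself did not exceed the background. Of 23 lamina and envelope genes 13 lay inside (56.5%), and 7 more (30.4%) were in LAD-free runs of 100 to 990 kb. By midpoint, 10.3% of all protein-coding genes were in runs of that length. LMNA, LMNB2, LBR (the lamin B receptor) and SUN1 and SUN2, which link the lamina to the cytoskeleton, were inside. LMNB1, the protein the antibody bound, was in a LAD-free run of 370 kb. SYNE1 and TPR had their midpoints in LADs of both states.

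Polycomb subunits lay inside at 23 of 30 (76.7%). The methyltransferases EZH2 and EZH1, their partners SUZ12 and JARID2, and CBX2, CBX7 and RING1 of PRC1 were inside. EED, the core subunit that binds methylated histone H3, was in a naive LAD only, RNF2, the main ubiquitin ligase of PRC1, was in LADs of both states, and BMI1 sat in a LAD-free run of 90 kb. DNA methylation enzymes lay inside at 10 of 13 (76.9%), among them DNMT1, DNMT3A, DNMT3B, DNMT3L, UHRF1, TET1 and TET3. TET2 was in LADs of both states.

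ZNF genes, a large group of zinc finger transcription factors of which many silence transposable elements, lay inside at 430 of 497 (86.5%). Outside chromosome 19 the share was 184 of 251 (73.3%), against 60.8% of all protein-coding genes. The stretch chr19:31970001-53980000 held 103 of them, chr19:55660001-58600000 held 52, chr19:5910001-18150000 held 41 and chr19:18160001-22960000 held 29. Histone genes stood at 45 of 72 (62.5%). Of the 55 on chromosome 6, 29 lay in chr6:26230001-29150000 (2.92 Mb), 23 lay in LAD-free runs of 100 to 990 kb, such as H2AC6 in a run of 310 kb, and H3C6 was in a primed LAD only. No histone gene of the list had its midpoint in LADs of both states. By midpoint, 15.2% of all protein-coding genes were in LADs of both states and 10.3% in LAD-free runs of 100 to 990 kb. When LADs under 50 kb were left out of the lists, 98.6% of histone genes lay inside. On that setting the share of all protein-coding genes was 74.3%.

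HOX genes, which set position along the body axis, were inside by cluster. The 11 HOXA genes lay in chr7:25760001-28490000 (2.73 Mb, 21 protein-coding genes in all), the 10 HOXB genes in chr17:43910001-51320000 (7.41 Mb) and the 9 HOXC genes in chr12:47600001-54790000 (7.19 Mb). The 9 HOXD genes were not in a stretch but in LAD-free runs of 100 to 990 kb, with HOXD13 in chr2:176060001-176250000, 190 kb long. The forkhead (FOX) and SOX transcription factors also had members in stretches and members in shorter LAD-free runs. FOX genes lay inside at 26 of 48 (54.2%), below the background, with an exact binomial interval (39.2% to 68.6%) that held the 63.7% of all protein-coding genes. Another 18 (37.5%) had their midpoint in LAD-free DNA without lying wholly inside a stretch, against 15.0% of all protein-coding genes. With LADs under 50 kb left out, 81.2% of FOX genes lay inside, above the 74.3% of all protein-coding genes on that setting. FOXA1, a regulator of endoderm, sat in a run of 20 kb, and FOXC1 in a run of 90 kb. SOX genes stood at 9 of 18, and SOX2, SOX9, SOX17 and SOX21 sat in runs of 60, 20, 60 and 50 kb. Unlike FOX genes, SOX genes were in LADs of both states at 3 of 18 (16.7%), against 15.2% of all protein-coding genes. With LADs under 50 kb left out, 55.6% of SOX genes lay inside, below the 74.3% of all protein-coding genes.

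Core pluripotency genes lay inside at 9 of 16 (56.2%), each in a stretch of its own. LIN28A lay in the longest stretch, POU5F1 (OCT4) in chr6:30110001-39560000 (9.45 Mb), CRIPTO in chr3:45690001-55290000 (9.60 Mb), NANOG in chr12:1-9500000 (9.50 Mb) and DNMT3B in chr20:30660001-39220000 (8.56 Mb). The others inside were SALL4 (6.43 Mb), ESRRB (5.63 Mb), UTF1 (2.18 Mb) and L1TD1 (1.21 Mb). SOX2, DPPA4 and ZFP42 sat in LAD-free runs of 60, 50 and 20 kb, LIN28B, PRDM14 and TERT in runs of 180, 580 and 880 kb, and DPPA2 was the 1 member in LADs of both states.

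The share of naive markers inside was near the background. That of primed markers was lower, with an exact binomial interval (28.2% to 71.8%) that still held the 63.7% of all protein-coding genes. The interval covers counting error only and treats the chosen members as independent. Naive markers lay inside at 13 of 20 (65.0%), including KLF17, TFCP2L1, DPPA3, DNMT3L and SUSD2, and the 2 in primed LADs only were DPPA5 and KHDC3L. Primed markers lay inside at 11 of 22 (50%), including ZIC2, SALL2 and THY1, 4 were in naive LADs only (FAT3, PTPRZ1, STC1 and DUSP6) and 2 in primed LADs only (FGF2 and VCAN). By midpoint, 3.84% of all protein-coding genes were in naive LADs only and 2.20% in primed LADs only. Primed markers were above this background: 6 of 22 were in LADs of 1 state, against 1146 of all 18973 protein-coding genes. Genes of the 8-cell embryo, when the human genome is first transcribed at large scale, lay inside at 19 of 29 (65.5%), among them ZSCAN4 and LEUTX on chromosome 19 and FGF8 and TRIM43 elsewhere. Outside chromosome 19 the share was 12 of 22 (54.5%), against 60.8% of all protein-coding genes. Imprinted genes, expressed from the allele of 1 parent, stood at 30 of 38 (78.9%) in 11 stretches. The IGF2 and KCNQ1 domain put 7 genes, among them H19, IGF2 and CDKN1C, in chr11:1460001-3280000, and the Prader-Willi and Angelman domain put 6, among them SNRPN and UBE3A, in chr15:22560001-28370000. PEG10 and SGCE were in LADs of both states.

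**Figure D4:**
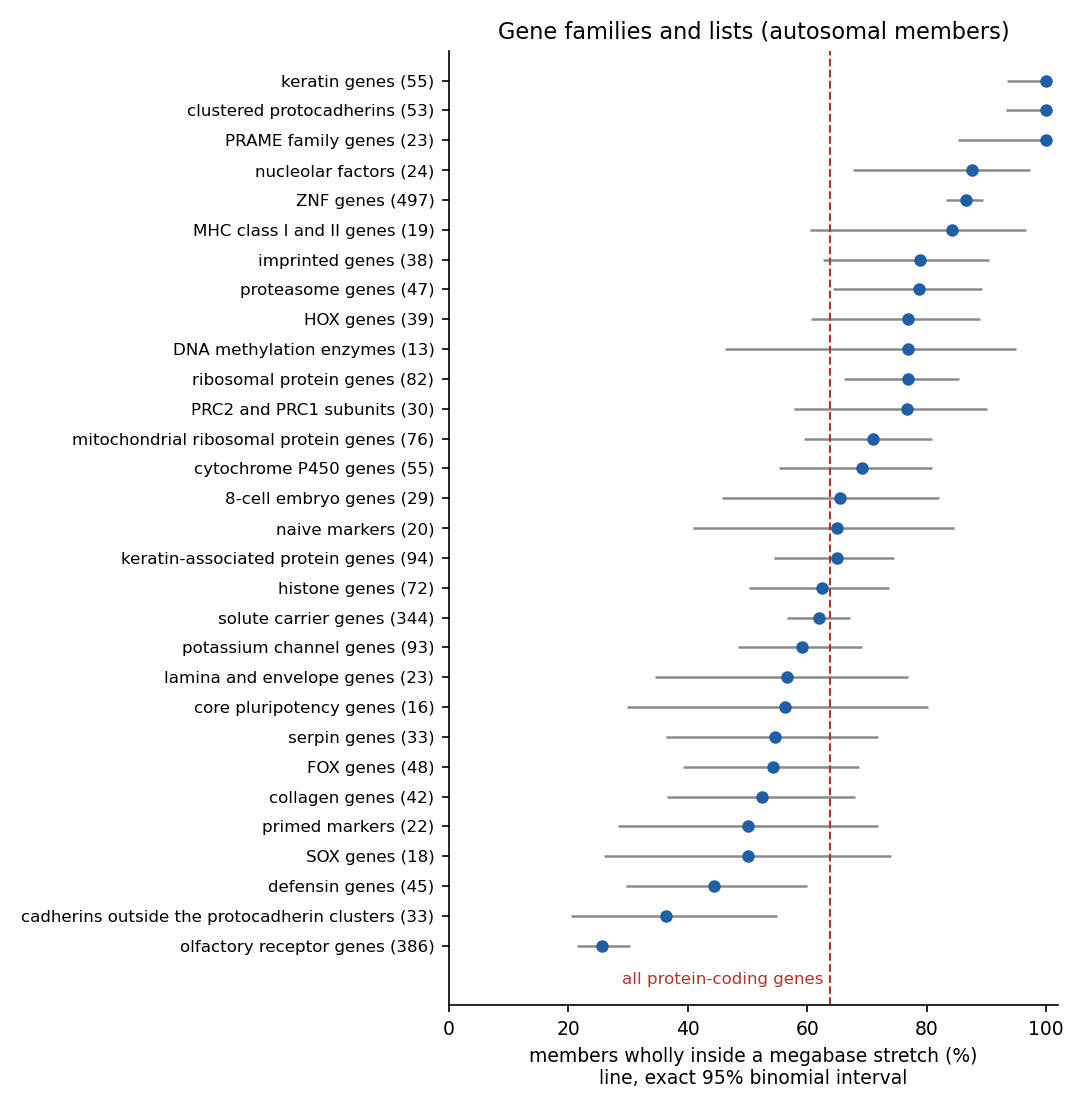
Points give the percent of autosomal members wholly inside a megabase stretch for 30 protein-coding or mixed families and lists, with the number of members in brackets, and lines give exact 95% binomial intervals that treat members as independent, which tandem copies are not. Keratins, clustered protocadherins and PRAME genes are at 100%, the dashed line marks the 63.7% of all protein-coding genes, and olfactory receptors are lowest at 25.6%.

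Some tissue-restricted tandem families were wholly inside. All 55 keratin genes, the intermediate filaments of epithelia, lay in 2 stretches, 27 in chr12:47600001-54790000, which also held HOXC, and 28 in chr17:36180001-43900000. All 53 clustered protocadherin genes, cell surface proteins that give neurons their identity, lay in chr5:138470001-142970000 (4.50 Mb). All 23 PRAME family genes, expressed mainly in the germline, lay in 2 stretches. Of the MHC class I and II genes, which present antigens, 16 of 19 lay in chr6:30110001-39560000 together with POU5F1, and HLA-F and HLA-G sat in a LAD-free run of 940 kb before it. PRAME genes and some ZNF genes have near-identical copies, and whether reads from them could be placed and called was not tested.

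Other tissue-restricted families were split or mostly outside. Olfactory receptor genes lay inside at 99 of 386 (25.6%), and 173 had their midpoint in LADs of both states (44.8%, against 15.2% of all protein-coding genes). With LADs under 50 kb left out, 45.3% of them lay inside, still under the 74.3% of all protein-coding genes. Those inside included 19 in chr19:5910001-18150000, 14 in chr9:120330001-124770000 and 23 in 2 neighbouring stretches of chromosome 14. Keratin-associated protein genes, which code for hair proteins, stood at 61 of 94 (64.9%). The 34 of chromosome 17 shared the keratin stretch, and 16 lay in chr21:40960001-46700000. Another 30 members on chromosome 21 were in LADs of both states, 31.9% of the family. Cadherins outside the protocadherin clusters, which hold cells together, lay inside at 12 of 33 (36.4%). CDH1 and CDH3 of epithelia and CDH5 of blood vessels were inside. The neural CDH2, CDH7, CDH8 and CDH9 were among 18 in LADs of both states (54.5%, against 15.2% of all protein-coding genes).

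Defensins, antimicrobial peptides, stood at 20 of 45 (44.4%), with 20 others in LAD-free runs of 100 to 990 kb on chromosome 8. By midpoint, 10.3% of all protein-coding genes were in runs of that length. With LADs under 50 kb left out the share inside was 91.1%, against 74.3% of all protein-coding genes. Tandem copies such as those on chromosome 8 are not independent members. Collagens stood at 22 of 42 (52.4%), with COL4A1 and COL4A2 of basement membranes inside and COL4A3 and COL4A4 in LADs of both states. Serpins, which inhibit proteases, stood at 18 of 33 (54.5%), with SERPINA1 inside and SERPINB2 and SERPINB5 in LADs of both states. Potassium channel genes stood at 55 of 93 (59.1%) and solute carriers at 213 of 344 (61.9%), both close to the background. Cytochrome P450 genes stood at 38 of 55 (69.1%), with the 4 CYP3A genes of drug metabolism in chr7:97900001-102500000, CYP2D6 in the second longest stretch, and CYP2C18 in LADs of both states. Outside chromosome 19 the P450 share was 26 of 43 (60.5%), near the 60.8% of all protein-coding genes there.

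The stretches ended at short LADs. They had 498 borders with a LAD, and their other 24 ends were chromosome ends (11 starts and 13 ends). The adjoining LAD was measured within each list, and the longer was taken where both lists had a LAD at the border window. It was a single 10 kb window at 413 borders (82.9%), 20 to 90 kb at 63, 100 to 990 kb at 17 and 1 Mb or longer at 5. With the lists joined some were longer, such as 860 kb before chr4:82280001-83400000, a single window in the primed list. The same share was 75% at LAD-free runs of 100 to 990 kb and 47.0% at runs under 100 kb. Among all autosomal LADs, 40.3% of 8474 naive and 45.9% of 5268 primed LADs were single windows.

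The border was set by the naive list alone at 333 borders (66.9%). It was set by the primed list alone at 144 (28.9%) and by both at 21 (4.22%). The naive list alone set 72.4% of borders at LAD-free runs of 100 to 990 kb and 67.3% at runs under 100 kb. The majority set by the naive list was therefore not particular to the stretches. Borders set by 1 list alone made up 95.8% at the stretches, against 95.4% at LAD-free runs of 100 to 990 kb and 85.9% at runs under 100 kb. From a border set by 1 list, the nearest outward LAD of the other list was 480 kb away at the median. Borders with none before the chromosome end, 16 set by the naive list and 10 by the primed list, were left out of this median. Over all borders set by 1 list, that LAD was within 50 kb at 17.2%, and over 1 Mb away or not found at 42.1%. A LAD of at least 100 kb lay 1570 kb outward at the median in the naive list and 2300 kb in the primed list.

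In the 1 Mb beyond a border, naive LADs covered 32.0% of windows on average (median 15%) and primed LADs 21.9% (median 2%). Cover climbed with distance, at 24.2% naive and 12.1% primed in the first 100 kb beyond the border and 37.8% naive and 29.4% primed at 900 to 1000 kb. Protein-coding gene midpoints stood at 9.88 per Mb in the first 100 kb inside the border and 7.79 in the first 100 kb outside. At 400 to 500 kb they stood at 11.8 inside and 7.36 outside. The outside values of LAD cover and gene density depended in part on the choice of stretches. The border window, a LAD in at least 1 list by the rule, was counted in the first 100 kb outside. At the 50 gaps of 10 kb between neighbouring stretches, the DNA beyond that window was another stretch, LAD-free by the rule.

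**Figure D5:**
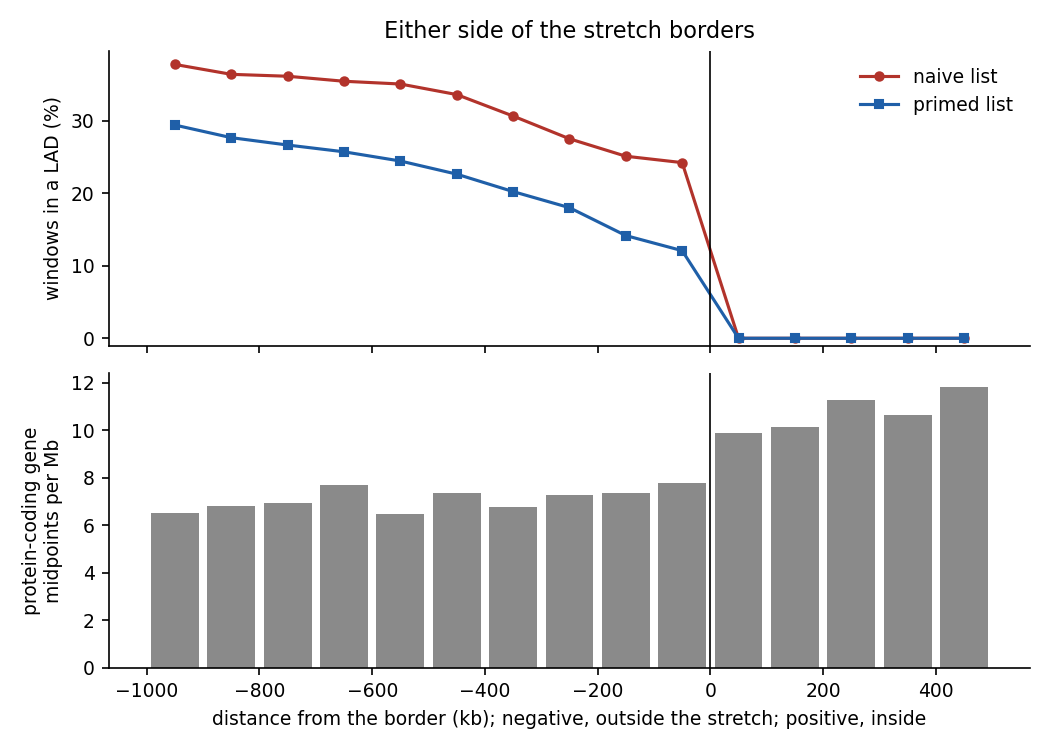
The upper panel gives the percent of 10 kb windows in a naive or primed LAD, and the lower panel protein-coding gene midpoints per Mb, in 100 kb steps of distance from the 498 borders (negative outside, positive inside the stretch). Inside, LAD cover is 0 by construction. Outside, the naive line lies above the primed line at every step. The first outside step counts the border window itself, and some borders face another stretch, LAD-free by the rule. Gene density is 9.88 to 11.8 inside and 6.46 to 7.79 outside.

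Many neighbouring stretches were parted by 1 window. Among 239 pairs of neighbours on a chromosome, the gap was 10 kb in 50 and 1 Mb or more in 147, with a median of 2620 kb. The 10 kb gaps were a naive LAD in 27 cases, a primed LAD in 20 and a LAD of both states in 3, and 34 of the 50 (68.0%) touched a protein-coding gene. Of all 413 single-window border LADs 49.6% did so, and among all autosomal single-window LADs the share was 51.4% for the naive list and 48.1% for the primed list. Of the windows in the stretches themselves, 59.2% touched a protein-coding gene. The 10 kb gaps adjoined 84 of the 261 stretches. The 2 long stretches of the chromosome 1 short arm were parted by 1 naive window in NBPF1, a member of a multicopy family, at chr1:16590001-16600000. Other parting windows lay in EGLN1, an oxygen sensor (naive), in SHC1 and CKS1B (primed) and in SLC2A4 and YBX2 (both states). These genes were chosen after the gaps were seen, and whether such windows reflect reads from repeated sequence was not tested.

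The 2 states differed in how far the LAD-free run around a stretch extended when each list was taken alone. The run had a median of 3.14 Mb in the naive list and 4.80 Mb in the primed list. It was longer in the naive list for 68 stretches, longer in the primed list for 189 and equal for 4, and it equalled the stretch itself for 135 stretches in the naive list and 34 in the primed list. Taken alone, the naive list left 250 runs of 1088.2 Mb with 65.4% of protein-coding genes, and the primed list left 278 runs of 1294.34 Mb with 72.6%. The 2 lists differ in number of LADs, and whether depth or calling differed between them was not tested.

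The runs that were longest in the primed list relative to the naive list were at chr1:1170001-16590000 (15.42 Mb in the naive list, 47.5 Mb in the primed list), chr19:27510001-28530000 (1.16 Mb and 26.47 Mb) and chr22:45940001-50310000 (4.37 Mb and 29.3 Mb). Those longest in the naive list relative to the primed list were at chr19:22970001-24370000 (24.9 Mb and 1.40 Mb), chr19:53990001-55650000 (23.68 Mb and 1.66 Mb) and chr19:18160001-22960000 (24.9 Mb and 4.80 Mb). Chromosome 19 thus showed both patterns. Its first 24.9 Mb held no naive LAD, and the 4 stretches in it were parted by 3 single primed windows, 1 of them touching MAST3 and PIK3R2, a regulator of lipid kinase signalling. Beyond the centromere 26.47 Mb held no primed LAD and was cut into 3 stretches by 2 single naive windows. A further primed window, in CACNG8, parted the third longest stretch from the densest one.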

How the data were processed

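LMNB1-dam and Dam-only pA-DamID libraries of naive and primed H9 cells were analysed as 1 deposited LAD list per state, each with chromosome, start and end and no score. The labels give these lists a name other than the one the files carry, and whether they are the same lists was not settled by the sources used here. The hg38 build and the tools BWA, SAMtools 1.10 and SICER are listed, with no order or settings, per the submitters' processing notes. No source used here gives thresholds, depth or the way libraries were pooled. Depth is therefore unknown, and a GATC-poor or unmappable window looks the same in these lists as 1 far from the lamina.

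The deposited coordinates (all on 10 kb steps) were laid on 10 kb windows of chromosomes 1 to 22, from 1 to the end of the last window holding a gene or LAD. Genes came from RefSeq (GRCh38.p14, the same primary assembly): 56080 autosomal rows were used, and 676 rows on scaffolds were left out. A gene was inside when wholly within a stretch, and density by class used midpoints. The 33 families and lists were matched by symbol. The members and lists were chosen with earlier results of these data known. Stretches were named by rule: the 10 longest, the 5 densest and 5 sparsest, the neighbours of the 1 Mb limit, 3 per direction with unequal runs between lists, and those holding HOX, protocadherin, histone, MHC, keratin or core pluripotency genes, with up to 6 genes each; families gave up to 6 members. Members named beyond these limits were chosen after their positions were seen. On simulated lists, 151 of 151 planted stretches were recovered and 0 others were found. The simulated naive and primed lists were identical, so this did not check how differing lists are combined. Scripts ran in Python 3.11.15 (SciPy 1.17.1, matplotlib 3.10.9, pandas 2.3.3, numpy 2.4.6). With 1 list per state there was no test.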

Additional observations from a re-analysis of the deposited data

How the results depend on the processing

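No paired analysis was possible because each state has 1 list for all its libraries, and for the same reason no library could be left out. Joining LADs under 50 or under 100 kb apart changed none of the 5 main values (261 stretches, 997.62 Mb, 63.7% of protein-coding genes, 12.1 genes per Mb, 4.22% of borders set by both lists), because such gaps are shorter than the runs kept. A minimum of 2 Mb gave 161 stretches, 855 Mb, 56.7% and 12.6 genes per Mb, and a minimum of 500 kb gave 405, 1100.13 Mb, 67.9% and 11.7. The naive list alone gave 1088.2 Mb, 65.4% and 11.4 genes per Mb, and the primed list alone 1294.34 Mb, 72.6% and 10.6. Leaving out LADs under 50 kb gave 1375.5 Mb, 74.3%, 10.3 genes per Mb and 7.59% of borders, and under 100 kb 1446.09 Mb, 76.6%, 10.1 and 8.29%. Requiring a protein-coding gene gave 957.47 Mb and 12.6 genes per Mb, leaving out stretches with long gene-free intervals 896.37 Mb and 13.4, and adding chromosome X 1039.65 Mb. None of the 5 main values has a direction to reverse. Shares of the 33 families and lists moved mostly 1 way. With a minimum of 500 kb, 19 rose and 0 fell, and 27 stayed within the interval of the main value. With LADs under 50 kb left out, 27 rose and 0 fell, and 23 stayed within it. The share of all protein-coding genes rose too, to 67.9% and 74.3%. Without the stretches that cross long gene-free intervals, 0 rose and 5 fell, and all 33 stayed within it. Small lists have wide intervals, so staying within them does not show that a share was stable. Leaving out the 1 stretch that holds most tRNA genes, chosen after seeing the data, gave 60.5% of tRNA genes in place of 73.9%. Depth and replicate spread are unknown for all values.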
